A study of Mus musculus with 9 samples.

Results

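Zinc finger protein genes were examined in RNA recovered with Argonaute 2 (Ago2), to which microRNAs and the transcripts they target are bound, from the amygdala of mice after chronic social defeat. The genes were those whose deposited symbol was Zfp followed by a digit, and 137 of the 9803 gene symbols in the deposited table met this rule. In each comparison with controls, about 7 in 10 of them had a higher signal in the defeated mice, against 57.9% to 58.6% of all genes. Of all genes with a brighter signal, 69.9% to 71.1% were higher. Once every array was set to one common median, 55.5% to 62.0% of the zinc finger genes were higher, against 45.8% to 47.8% of all genes. With defeated mice and with susceptible mice set against controls limma called 7 zinc finger genes each, all higher, or 5.11%, against 1.29% and 2.4% of all genes. In all, 8 different zinc finger genes rose: Zfp235, Zfp516, Zfp651, Zfp282, Zfp667, Zfp113, Zfp790 and Zfp810. With one common median limma called 7 zinc finger genes in defeated mice, 3 of them lower, against 1.67% of all genes. In susceptible mice it called 24, or 17.5%, with 18 lower, against 15.3% of all genes. Of those called among all genes, 231 were higher and 1266 lower. With an allowance for the selection of the table, quantile normalisation or the array number as a block, no zinc finger gene was called. At most 0.122% of all genes were called under these. No zinc finger gene and no other gene was called in resilient mice set against controls or between susceptible and resilient mice.

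The arrays fell into 3 groups of 3. The susceptible group and the resilient group held male C57BL/6J mice put through chronic social defeat, in which a mouse meets an aggressor day after day, and the control group held undefeated mice of the same strain. The mice were 10 weeks old at defeat and the tissue was taken 8 days after the protocol ended. Ago2 was immunoprecipitated from the tissue and Affymetrix whole-transcript arrays were run with 100 ng of labelled RNA each. The susceptible and resilient arrays were numbered 1 to 3 and the control arrays 1, 2 and 4. How mice were sorted into susceptible and resilient is not stated in the labels. Nor do they state that each array was a separate animal, so the p-values cover the spread among these arrays alone, which may be technical.

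Zinc finger proteins of the Zfp series carry small protein folds held together by a zinc ion, most often repeats of the Cys2His2 finger, which reads short stretches of DNA. Many also carry a KRAB box, which recruits the co-repressor Trim28 and with it histone methylation that silences transposable elements and imprinted genes. Others lack this box and work with chromatin complexes, and a few, with CCCH or other fingers, bind RNA and control its decay, splicing or translation. In brain, members of the series take part in neuronal migration and differentiation.

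Values are log2 RMA signals, so a difference of 1 would be a doubling, and levels of different genes cannot be set against each other. Transcript abundance, binding to Ago2 and carry-over can each set a signal, and neither total RNA nor a control precipitation was analysed here. Fewer cells of a type and less RNA per cell cannot be told apart in such bulk samples. The table had been selected by the authors for differences between the 3 groups: no symbol had a one-way p above 0.287 when an analysis of variance was run on the deposited values. Of the zinc finger genes, 33.6% had such a p under 0.05, against 18.7% of all symbols. Adjusted p-values over the table are therefore smaller than over a whole array, and each count is also given with an allowance, in which p was divided by 0.287 before adjustment. Array medians lay between 7.26 and 7.35. A dim level was set at 6.1, the 95th percentile of 582 olfactory and vomeronasal receptor genes, and 116 zinc finger genes lay above it and 21 below.

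Among the genes that rose, 7 have a promoter window in a RefSeq table of GRCm38.p6, each of 300 bases, with 250 before and 50 after the start. These windows are shown because these genes rose together and their windows differ in the GC box, the letters GGGCGG on either strand, which are in capitals (GGGCGG or its complement CCGCCC). They are chr7:6286330-6286629 on the plus strand, chr9:121759783-121760082 on the plus strand and chr7:24132122-24132421 on the plus strand, each written 5′ to 3′.
Zfp667: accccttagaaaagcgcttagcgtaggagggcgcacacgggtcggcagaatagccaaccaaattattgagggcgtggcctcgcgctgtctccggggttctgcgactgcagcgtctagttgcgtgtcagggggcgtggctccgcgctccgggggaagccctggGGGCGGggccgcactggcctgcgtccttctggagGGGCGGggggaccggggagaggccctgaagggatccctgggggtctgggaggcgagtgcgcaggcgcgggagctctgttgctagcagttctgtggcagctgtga
Zfp651: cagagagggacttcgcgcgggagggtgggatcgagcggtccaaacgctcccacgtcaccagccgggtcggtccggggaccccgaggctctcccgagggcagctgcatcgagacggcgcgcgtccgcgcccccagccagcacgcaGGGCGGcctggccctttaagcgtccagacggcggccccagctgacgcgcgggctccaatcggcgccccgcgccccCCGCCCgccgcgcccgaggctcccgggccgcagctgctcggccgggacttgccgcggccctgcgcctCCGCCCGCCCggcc
Zfp235: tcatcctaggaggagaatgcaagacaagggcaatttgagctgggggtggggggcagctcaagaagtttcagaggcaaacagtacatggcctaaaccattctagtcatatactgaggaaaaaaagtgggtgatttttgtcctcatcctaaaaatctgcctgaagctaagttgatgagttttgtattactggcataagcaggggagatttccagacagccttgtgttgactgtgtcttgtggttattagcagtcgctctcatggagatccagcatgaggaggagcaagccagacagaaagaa
The Zfp667 window held 2 GC boxes and that of Zfp651 held 4, of which 2 overlap near its end, while that of Zfp235 held none. GC content was 67.7% for the Zfp667 window, 78.7% for that of Zfp651 and 45.7% for that of Zfp235. The windows of Zfp282 and Zfp810 held 1 GC box each, and those of Zfp113 and Zfp790 held none. Over the 126 windows of the 104 zinc finger genes that had one, 48.41% held a GC box, against 35.66% of all 32851 windows. The 32851 were all windows of 300 bases in the RefSeq table, not only those of genes in the deposited table. The median GC content was 56.5% for the zinc finger windows and 52.7% for all. The letters CCGGAAGT, a motif of ETS factors, stood in 9.52% of zinc finger windows and 3.89% of all, on either strand. The palindromic NRF1 motif stood in 3.17% and 0.97%, and the YY1 motif in 2.38% and 0.85%. The E-box CACGTG was in 4.76% of zinc finger windows against 7.15% of all. Neither the cyclic AMP response letters TGACGTCA, in 1.79% of all windows, nor the full glucocorticoid response element, in 0.01%, was in any zinc finger window. These 7 motifs were searched on both strands, and a match or its lack says nothing of binding.

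Set against controls, the defeated mice (the mean of the susceptible and resilient groups) had higher signals of 7 zinc finger genes, by 1.14-fold to 1.25-fold. limma called these 7, or 5.11% of the 137, at an adjusted p under 0.05, against 1.29% of all 9803 genes. Higher calls were 1.01% of all genes and lower calls 0.275%, and no zinc finger gene was called lower. With the allowance for selection it called 0 zinc finger genes and 0 genes in all, and 63 zinc finger genes had an unadjusted p under 0.05, or 46%, against 36.9% of all, and 48 of these were higher, against 23.3% of all genes. With every array shifted to one common median, 7 were called again, but 4 were higher and 3 lower, against 1.67% of all genes called. Those 4 were Zfp235, Zfp516, Zfp651 and Zfp667, and the 3 lower were Zfp524, Zfp738 and Zfp787.

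Zfp516 encodes a protein known to drive genes of brown fat together with Prdm16, and its rise was the largest of the called genes. Its log2 signal was 8.56, 8.44 and 8.58 on the susceptible arrays, 8.41, 8.57 and 8.39 on the resilient arrays, and 8.21, 8.18 and 8.12 on the control arrays. Resilient 2 reached the susceptible values, and no defeated array overlapped a control array. Defeated mice exceeded controls by 0.32 (SE 0.051), or 1.25-fold, with a limma adjusted p of 0.0397. The group means were 8.53 ± 0.08 in susceptible, 8.45 ± 0.10 in resilient and 8.17 ± 0.04 in control mice (SD, n = 3 each).

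Zfp235 had the smallest adjusted p of the zinc finger genes. It stood at 8.09, 8.05 and 8.12 on the susceptible arrays, at 7.93, 7.94 and 7.94 on the resilient arrays, and at 7.81, 7.82 and 7.84 on the control arrays. The 3 groups did not overlap at all, with the resilient arrays between the others. For Zfp235 the defeated mice were higher by 0.19 (SE 0.029), or 1.14-fold, with a limma adjusted p of 0.0371. In the exact permutation test over arrays its two-sided p was 0.0238, because the susceptible arrays taken as the 3 would differ even more.

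Zfp667 is known in rat as Mipu1, a gene raised in heart by ischaemic preconditioning. Its signal was 9.82, 9.93 and 10.03 on susceptible arrays, 9.79, 9.81 and 9.79 on resilient arrays and 9.63, 9.47 and 9.63 on control arrays. Every susceptible array lay above every resilient array and these above every control array. The rise in defeated mice was 0.29 (SE 0.053), with a limma adjusted p of 0.0448.

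Zfp282, whose human counterpart was found as a repressor of the long terminal repeat of a T-cell leukaemia virus, had the same order of means. It was at 8.59, 8.48 and 8.64 in susceptible mice, 8.42, 8.42 and 8.49 in resilient mice and 8.28, 8.19 and 8.30 in controls. The groups of defeated mice overlapped each other, through susceptible 2, and neither overlapped controls. The difference was 0.25 (SE 0.045), with a limma adjusted p of 0.0408.

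The remaining 3 had similar signals in both defeated groups. Zfp651 was at 10.11, 10.19 and 10.21 in susceptible mice, 10.09, 10.16 and 10.22 in resilient mice and 9.94, 9.91 and 9.95 in controls, a rise of 0.23 (SE 0.038). Zfp113 was at 8.49, 8.51 and 8.41 in susceptible, 8.42, 8.50 and 8.43 in resilient and 8.22, 8.30 and 8.27 in control mice, a rise of 0.19 (SE 0.037). Zfp790 was at 8.17, 8.43 and 8.33 in susceptible, 8.28, 8.24 and 8.38 in resilient and 8.03, 7.98 and 8.04 in control mice, a rise of 0.29 (SE 0.057). The susceptible and resilient arrays of each intermingled, and all 6 lay above the controls. Their limma adjusted p-values were 0.0408 for Zfp651, 0.0448 for Zfp113 and 0.049 for Zfp790, and with one common median Zfp651 was still called while Zfp113 and Zfp790 were not.

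**Figure D1:**
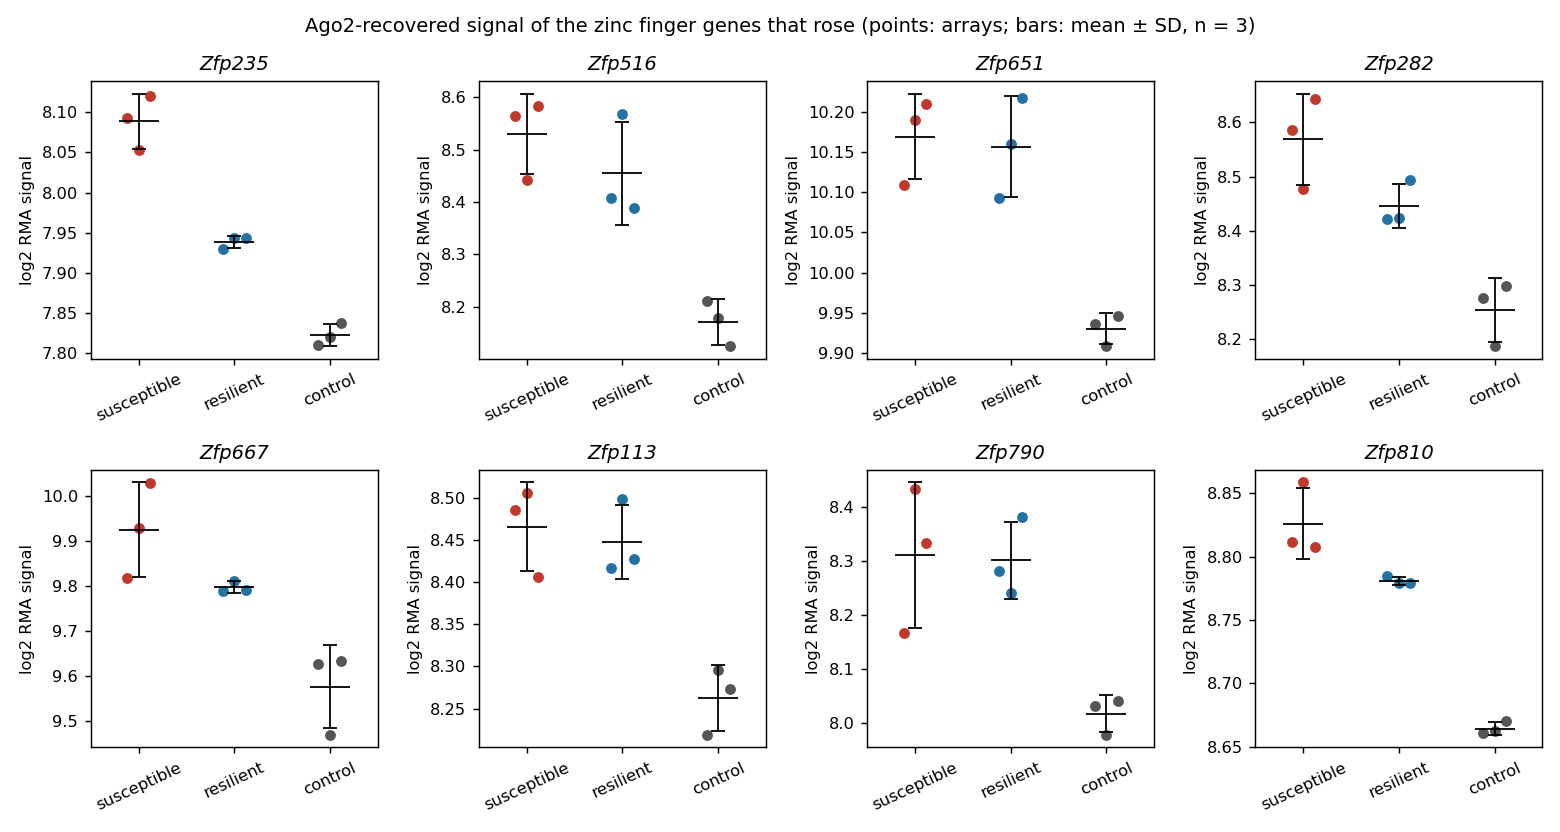
The log2 RMA signal of the 8 zinc finger genes that rose in a comparison with controls, by group, where points are arrays and bars give the mean ± SD (n = 3). All 6 defeated arrays lie above all 3 control arrays in every panel, and the resilient arrays of Zfp235 lie between the other groups.

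Each of these 7 calls was lost with the allowance, with quantile normalisation or with the replicate number as a block. Their differences were 92.4% to 113% of the values above with the block, and 53.4% to 75.4% with quantile normalisation. Under the latter those of Zfp113 (0.104), Zfp235 (0.121) and Zfp282 (0.168) shrank by over 1.5 times. In the block control 4 was the only array of its number, so it added nothing to the differences there. The block also left fewer degrees of freedom for the spread. Each was also lost without control 1, control 2, control 4, susceptible 2, susceptible 3, resilient 2 or resilient 3, and 2 of the 9 fits that leave out an array called each of them. Without susceptible 1 limma called 29 zinc finger genes, 25 higher and 4 lower, or 21.2%, against 13.6% of all genes. Without resilient 1 it called 13, all higher, or 9.49%, against 4.39% of all. Exact permutation p-values were 0.0119 for every one of the 7 except Zfp235, the smallest that 84 arrangements of 6 against 3 arrays allow. Selection of the table used the true groups and so favours their arrangement.

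No zinc finger gene was called lower, and those nearest to it are given as values. Zfp738 was at 6.88, 6.86 and 6.94 on susceptible arrays, 6.86, 6.78 and 6.90 on resilient arrays and 6.98, 7.06 and 7.05 on control arrays. Zfp524 was at 7.74, 7.71 and 7.65 in susceptible, 7.69, 7.74 and 7.71 in resilient and 7.82, 7.88 and 7.82 in control mice. All 6 defeated arrays were below all controls for both. Their differences were -0.16 (SE 0.038) and -0.13 (SE 0.033), with limma adjusted p-values of 0.0586 for Zfp738 and 0.0642 for Zfp524, and with dim genes left out Zfp738 was called (adjusted p = 0.0476). Below the dim level, Zfp787 differed by -0.20 (SE 0.052), Zfp296, a gene of pluripotent cells, by -0.17 (SE 0.049), and Zfp750, a regulator of skin differentiation, by -0.11 (SE 0.037). Signals at that level cannot be told from those of receptor genes of the nose.

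The values just past the threshold on the higher side included those of Zfp810, at a limma adjusted p of 0.0522, Zfp445 at 0.0561 and Zfp142 at 0.0564. With dim genes left out limma called all 3, and 12 of 116 zinc finger genes in all, or 10.3%, against 5.33% of the 5758 genes above the dim level. The largest difference of any zinc finger gene, 0.39 (SE 0.142) for Zfp600, was at a dim signal and overlapped controls. Zfp600 was at 5.84, 6.11 and 6.46 in susceptible, 5.99, 6.27 and 5.89 in resilient and 5.73, 5.47 and 5.91 in control mice.

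**Figure D2:**
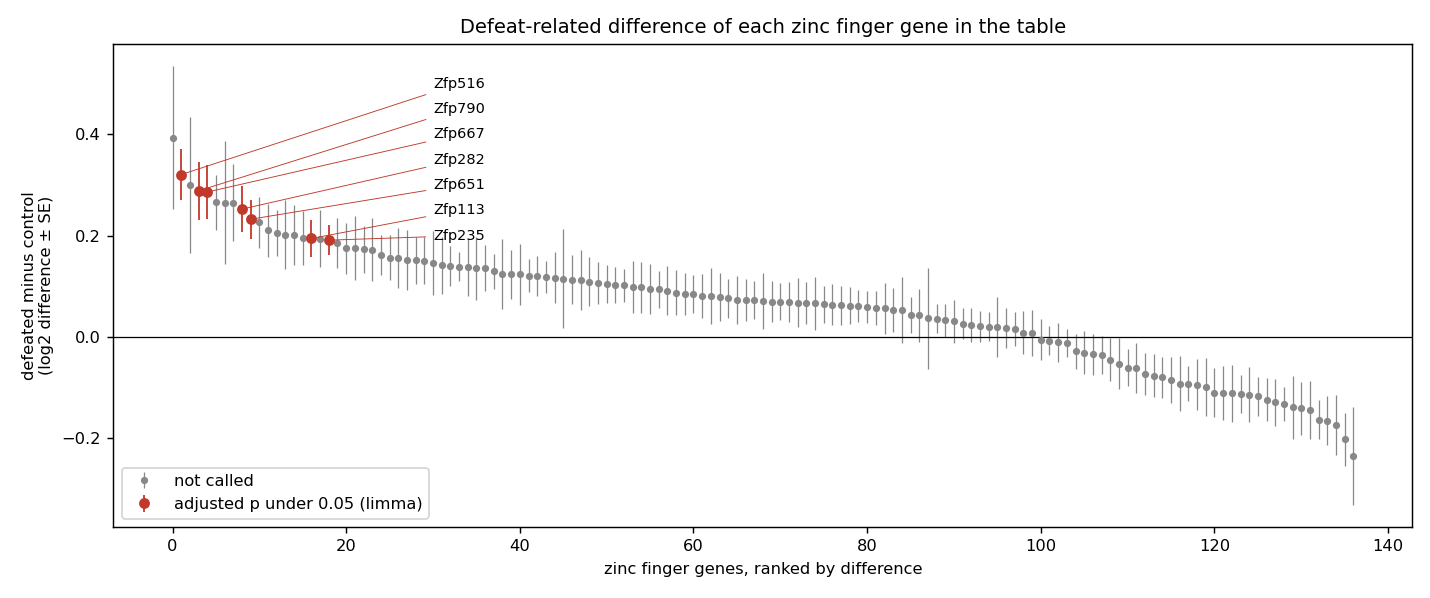
The difference between defeated and control mice (log2, ± limma's SE) of each of the 137 zinc finger genes, ranked by size, with the 7 genes at an adjusted p under 0.05 in red and named. Differences run between 0.39 and -0.23, and 100 of the 137 lie above 0.

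The zinc finger genes as a group lay to the higher side. In defeated mice 100 of 137 were higher than in controls and 37 lower (85 higher with one common median, 80 with quantile normalisation), with a median of 0.07. Of all 9803 genes 58.6% were higher, with a median of 0.04, and 47.4% with one common median and 52.0% with quantile normalisation. All 6 defeated arrays lay above all controls for 32 zinc finger genes, or 23.4%, against 10.9% of all genes, and below them for 5, or 3.65%, against 6.45%. Past a difference of 1.2-fold there were 8 zinc finger genes, or 5.84%, and 3.98% of all genes.

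Brighter genes lay higher as a class, and most zinc finger genes were among them. Above the dim level 89 of 116 zinc finger genes were higher, with a median of 0.08, against 71.1% of the 5758 genes above it, with a median of 0.07. Below the dim level 11 of 21 zinc finger genes were higher, with a median of 0.02, against 1651 of 4045 genes and a median of -0.04. The share with all defeated arrays above all controls was 25% of the 116 and 14.4% of the 5758. Across genes, which are not independent replicates, Spearman's rho of the difference with mean signal was 0.13 for zinc finger genes and 0.27 for all. With gene length it was 0.22 for both, over 7674 genes with a length.

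The shift was present on each defeated array, as was a higher median of all genes, 7.29 to 7.35 on defeated arrays and 7.26 to 7.27 on control arrays. Relative to the mean of the controls, the average signal of the 116 brighter zinc finger genes was 0.060, 0.089 and 0.096 higher on susceptible 1, 2 and 3 and 0.047, 0.068 and 0.073 higher on resilient 1, 2 and 3. For all 5758 brighter genes the same averages were 0.046, 0.069 and 0.078 on the susceptible arrays and 0.027, 0.048 and 0.060 on the resilient arrays. The control arrays lay between -0.012 and 0.014 for zinc finger genes and between -0.009 and 0.013 for all. Each defeated array was thus above every control array in both sets, and by 0.013 to 0.020 more in zinc finger genes. With one common median the zinc finger averages were 0.018, 0.023 and 0.011 on the susceptible arrays, 0.022, 0.029 and 0.034 on the resilient arrays and -0.008 to 0.009 on the control arrays, so most of the shift went with the array median. The averages of all brighter genes then ran between -0.006 and 0.021 on defeated arrays and overlapped those of controls, which ran between -0.005 and 0.008.

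**Figure D3:**
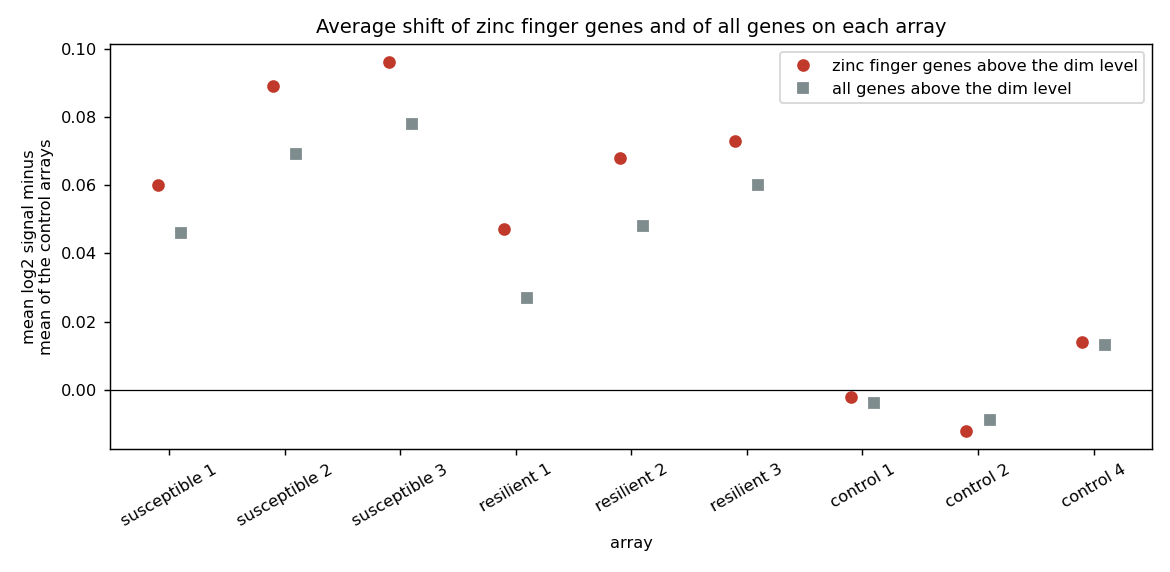
The average log2 signal on each array minus the mean of the control arrays, as deposited, for the 116 zinc finger genes (circles) and all 5758 genes (squares) above the dim level. On each of the 6 defeated arrays both averages lie above the control arrays, and the zinc finger average lies above that of all genes.

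Markers of other cell types differed in level between the groups, and none of those described here was called. Of 16 choroid plexus and ependymal markers 14 were in the table, and all 14 were higher in defeated mice, with none called. Their summed level ran between 14.89 and 15.17 (log2) in susceptible, 14.59 and 14.93 in resilient and 14.57 and 14.90 in control mice. With each array's mean of these markers as a covariate, limma called no zinc finger gene and 0 of all 9803 genes. Of the 137, 97 were then higher, against 56.9% of all genes. The differences of the called genes with this covariate were 0.31 for Zfp516, 0.27 for Zfp790, 0.25 for Zfp667, 0.20 for Zfp113, 0.17 for Zfp235, 0.205 for Zfp282 and 0.193 for Zfp651, between defeated and control mice. The 4 oligodendrocyte markers present of 13 had summed levels of 11.52 to 11.59 in susceptible, 11.53 to 11.94 in resilient and 11.81 to 11.91 in control mice, and the 5 microglial markers present of 13 had 11.50 to 11.61, 11.45 to 11.67 and 11.67 to 11.72 in the same order. All 9 were lower in defeated mice. All 3 cholinergic markers were lower too, with a median of -0.44 in defeated mice, and their summed level was 7.25 to 7.80 in susceptible, 7.69 to 9.07 in resilient and 7.97 to 8.50 in control mice. The 3 endothelial markers present of 7 were lower, with a median of -0.15 and summed levels of 11.30 to 11.52 in susceptible, 11.17 to 11.42 in resilient and 11.38 to 11.61 in control mice. The part of these 4 lists in the result was not tested. Of the markers of basolateral amygdala none of 8 was in the selected table, and of those of central amygdala 3 of 12, so the labelled tissue could be checked only in part. Resilient 1 had the highest mean level of the cholinergic markers among the 9 arrays (7.22).

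In susceptible mice set against controls, 7 zinc finger genes rose, by 1.12-fold to 1.28-fold. They were 5.11% of the 137, against 2.4% of all genes called. Higher calls were 1.85% of all genes and lower calls 0.551%, and no zinc finger gene was called lower. They were Zfp516 (0.36, SE 0.058), Zfp667 (0.35, SE 0.061), Zfp282 (0.31, SE 0.052), Zfp235 (0.27, SE 0.034), Zfp651 (0.24, SE 0.044), Zfp113 (0.20, SE 0.043) and Zfp810 (0.16, SE 0.032). Their limma adjusted p-values ran between 0.0253, for Zfp235, and 0.0463, for Zfp113. With the allowance limma called 0 zinc finger genes and 1 gene in all, or 0.0102%. At an unadjusted p under 0.05 there were 68 zinc finger genes, or 49.6%, against 40.7% of all, and 53 of these were higher, against 25.9% of all genes. With dim genes left out it called 9 of 116, or 7.76%, against 6.63% of the genes above the dim level, and these included Zfp217 and Zfp790. The exact permutation test of 3 against 3 arrays cannot go below 0.1, and each of the 7 was at 0.1.

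Zfp810 was called in susceptible mice set against controls only, while Zfp790 was called in all defeated mice only, and whether they differ in this was not tested. Zfp810 was at 8.81, 8.86 and 8.81 on susceptible arrays, at 8.78 on each resilient array, and at 8.66, 8.66 and 8.67 on control arrays. Its resilient 2 and resilient 3 were tied at 8.7793. The 3 groups were in order without overlap, as for Zfp235 and Zfp667. In the susceptible comparison Zfp790 had a difference of 0.29 (SE 0.066) and a limma adjusted p of 0.052.

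The direction of the calls in susceptible mice depended on the scaling. With one common median limma called 24 zinc finger genes, 6 higher and 18 lower, and 15.3% of all genes, of which 231 were higher and 1266 lower. The 6 higher were Zfp235, Zfp282, Zfp516, Zfp651, Zfp667 and Zfp790. Without any one of control 1, control 2, susceptible 2, susceptible 3 or resilient 2 limma called 0, and at most 0.0102% of all genes. Without control 4 it called 2, or 1.46%, against 0.908% of all genes. Without susceptible 1 it called 29, 25 higher and 4 lower, or 21.2%, near the 19.7% of all genes called. Under the choroid plexus covariate the differences of the 7 genes were 0.17 to 0.34, and none passed, nor did any of the 9803 genes.

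Of the 137 genes, 99 were higher in susceptible mice than in controls, with a median of 0.09, against 57.9% of all genes and a median of 0.05. With one common median 76 were higher, with a median of 0.03, against 45.8% of all genes and a median of -0.02. Among genes above the dim level, 88 of 116 zinc finger genes were higher, or 75.9%, against 70.0% of all 5758. All 3 susceptible arrays lay above all controls for 50 zinc finger genes, or 36.5%, against 25.4% of all, and below for 16, or 11.7%, against 14.8%. Past a difference of 1.2-fold there were 10 zinc finger genes, or 7.3%, a smaller share than the 8.16% of all genes. The lowest differences were those of dim genes, led by Zfp660 with -0.29 (SE 0.066, limma adjusted p = 0.0527). Above the dim level Zfp125, a symbol without a match in RefSeq, was at 8.85, 8.81 and 8.89 in susceptible mice, 8.94, 8.93 and 8.93 in resilient mice and 8.93, 9.07 and 9.02 in controls. Its susceptible arrays lay below all others, a difference from controls of -0.16 (SE 0.044).

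In resilient mice set against controls limma called none of the 137 genes and none of the 9803. At an unadjusted p under 0.05 there were 45 zinc finger genes, or 32.8%, against 21.2% of all. Of these 37 were higher, against 13.6% of all genes, and 8 lower, against 7.6%. The smallest p-values on the higher side included those of Zfp651 (0.23, SE 0.044), Zfp516 (0.28, SE 0.058), Zfp113 (0.19, SE 0.043) and Zfp790 (0.28, SE 0.066), all with a limma adjusted p of 0.179. For each of these 4 genes the resilient arrays lay above all controls.

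On the lower side Zfp709 had the largest difference in resilient mice, -0.33 (SE 0.112), with a limma adjusted p of 0.205. It was at 8.00, 8.22 and 8.36 on resilient arrays and 8.36, 8.69 and 8.53 on control arrays, so resilient 3 met control 1. Zfp820, at a dim signal, differed by -0.18 (SE 0.061) and Zfp738 by -0.19 (SE 0.044). In total 97 of the 137 genes were higher in resilient mice than in controls, against 58.4% of all. With one common median 82 were higher, against 47.8% of all, and with quantile normalisation 78, against 52.0%. Among genes above the dim level, 86 of 116 zinc finger genes were higher, or 74.1%, against 69.9% of all 5758. All resilient arrays lay above all controls for 43 zinc finger genes, or 31.4%, against 16.7% of all, and below for 6, or 4.38%, against 11.4%. Past 1.2-fold there were 7 zinc finger genes, or 5.11%, against 2.61% of all genes. The comparisons with controls share the control arrays.

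Between susceptible and resilient mice limma called 0 zinc finger genes and 0 genes in all, and 17 zinc finger genes had an unadjusted p under 0.05, or 12.4%, against 11.8% of all. Of these 12 were higher, against 6.61% of all genes, and 5 lower, against 5.2%. All susceptible arrays lay above all resilient arrays for 16 zinc finger genes, or 11.7%, against 8.35% of all, and below for 8, or 5.84%, against 6.65%. The median difference was 0.02, and -0.012 with one common median. The genes with the smallest p-values are given as values.

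Zfp235 differed by 0.15 (SE 0.034), with a limma adjusted p of 0.411, and the next on the higher side was Zfp217. It encodes a repressor of transcription that is part of CtBP and CoREST complexes, and its human gene is amplified in breast cancer. Zfp217 was at 7.48, 7.50 and 7.58 on susceptible arrays, 7.22, 7.32 and 7.31 on resilient arrays and 7.27, 7.10 and 7.37 on control arrays. The susceptible arrays stood above both other groups, which overlapped. The difference was 0.24 (SE 0.068). Past 1.2-fold there was 1 zinc finger gene, or 0.73%, against 2.29% of all genes, and it was the dim gene Zfp660, at -0.29 (SE 0.066).

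The RNA decay genes Zfp36l1 and Zfp36l2 encode CCCH proteins that bind AU-rich elements in mRNA and speed its decay. Zfp36l2 was at 9.89, 9.94 and 9.91 in susceptible mice, 9.83, 9.66 and 9.83 in resilient mice and 9.82, 9.83 and 9.84 in controls. The susceptible arrays lay just above both other groups, and resilient 2 lay below the other 8 arrays, with a difference between susceptible and resilient mice of 0.14 (SE 0.049) that was 0.083 without resilient 2. Zfp36l1 was at 10.26, 10.34 and 10.59 in susceptible, 10.16, 10.02 and 10.32 in resilient and 9.99, 10.15 and 10.35 in control mice. Its groups overlapped, and its difference between susceptible and resilient mice was 0.23 (SE 0.113). Neither was called in any comparison, and the sign of Zfp36l2 in defeated mice, 0.01, turned with one common median (-0.040) and with quantile normalisation (-0.065).

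On the lower side, susceptible arrays lay below resilient arrays for Zfp788 and the dim genes Zfp660 and Zfp385c. Zfp788 was at 9.19, 9.39 and 9.32 in susceptible, 9.45, 9.44 and 9.47 in resilient and 9.42, 9.39 and 9.41 in control mice, a difference between susceptible and resilient mice of -0.16 (SE 0.049). Zfp660 was at 5.69, 5.66 and 5.48 in susceptible, 5.81, 5.96 and 5.92 in resilient and 5.97, 5.88 and 5.84 in control mice. Zfp385c was at 5.32, 5.12 and 5.18, then 5.35, 5.35 and 5.53, then 5.40, 5.48 and 5.35 in the same order. In all 3 the susceptible arrays were the lowest of the 9, and the resilient and control arrays overlapped for Zfp660 and Zfp385c. The other named differences between susceptible and resilient mice were 0.14 (SE 0.047) for the dim gene Zfp735, 0.11 (SE 0.042) for Zfp275, -0.17 (SE 0.061) for Zfp329 and -0.17 (SE 0.064) for Zfp39.

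**Figure D4:**
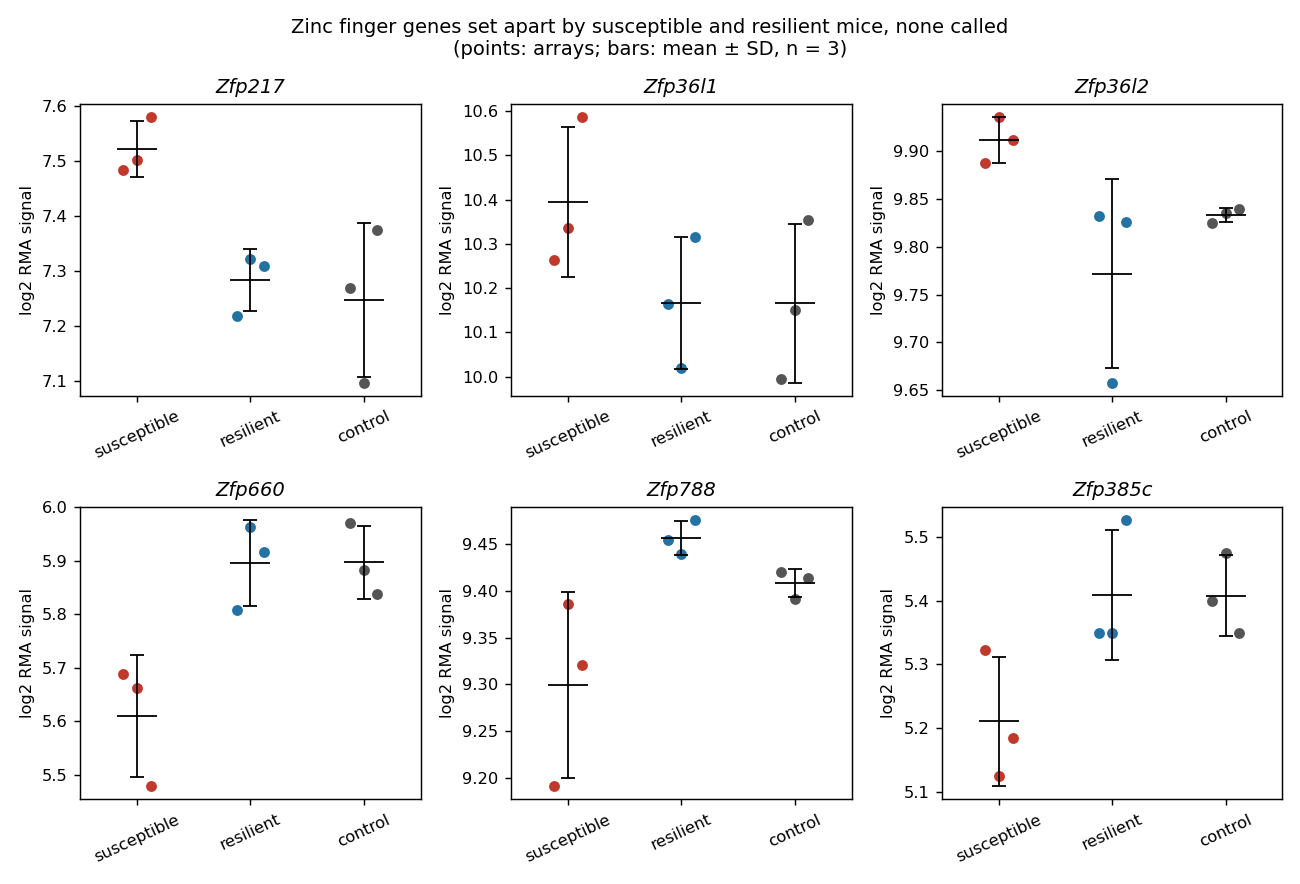
The log2 RMA signal of 6 zinc finger genes in susceptible, resilient and control mice, where points are arrays and bars give the mean ± SD (n = 3). For each gene except Zfp36l1 the susceptible arrays do not overlap the resilient arrays, and limma called none of the differences.

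Over the 3 groups at once, limma's F test called 0 zinc finger genes and 1 gene in all, or 0.0102%. At an unadjusted p under 0.05 there were 55 zinc finger genes, or 40.1%, against 27.4% of all. The smallest F p-values were those of Zfp235, Zfp516, Zfp282, Zfp651 and Zfp667, with limma adjusted p-values of 0.0942 for Zfp235 and 0.0985 for Zfp516 and 0.101 for each of the other 3. Since the table was selected on a one-way p, these counts describe the table.

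By role, 31 of the genes stood on lists of known function, and limma called 1 of them, Zfp516, in defeated mice, where 5.11% of the 137 and 1.29% of all genes were called. Of 9 other RNA binding and translation genes 7 were in the table, with 6 higher and 1 lower in defeated mice and a median of 0.06 (3 higher and 4 lower with quantile normalisation). Zfp830, whose protein is linked to splicing and needed by early embryos, was the highest of them. It was at 7.31, 7.48 and 7.65 in susceptible, 7.27, 7.46 and 7.41 in resilient and 7.26, 7.08 and 7.16 in control mice, which did not overlap the defeated arrays, for a difference of 0.27 (SE 0.076, limma adjusted p = 0.0758). Zfp207, whose protein binds microtubules and the checkpoint protein Bub3, was the lowest, at -0.12 (SE 0.043). The ribosome collision sensor Zfp598 had 0.01 (SE 0.046), the RNA-binding genes Zfp106 and Zfp385a had 0.06 (SE 0.036) and 0.07 (SE 0.038), the double-stranded RNA binder Zfp346 had 0.02 (SE 0.033), and Zfp326, of a complex that links transcription and splicing, had 0.10 (SE 0.050).

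Of 19 neural genes 6 were in the table, all 6 higher in defeated mice than in controls under each scaling tried, with a median of 0.10 and none called. All 6 lay above the dim level, where 71.1% of all genes were higher as deposited, with a median of 0.07. Zfp609, which acts with the cohesin loader in migrating cortical neurons, was at 9.99, 10.06 and 10.13 in susceptible, 10.05, 9.96 and 9.99 in resilient and 9.86, 9.88 and 9.92 in control mice. Zfp462, whose human counterpart is mutated in a developmental disorder, was at 10.58, 10.64 and 10.69 in susceptible, 10.67, 10.71 and 10.70 in resilient and 10.56 on each control array. Neither overlapped controls, with differences of 0.14 (SE 0.039) for Zfp609 and 0.10 (SE 0.033) for Zfp462. The rest were Zfp407 at 0.15 (SE 0.059), Zfp608 at 0.11 (SE 0.042), Zfp711, tied to intellectual disability in humans, at 0.09 (SE 0.044), and Zfp644 at 0.06 (SE 0.036). In susceptible mice all 6 were also higher than in controls, but 4 with one common median and 5 with quantile normalisation.

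Chromatin and transcription partners without a KRAB box numbered 24 on their list and 13 in the table, of which 11 were higher and 2 lower in defeated mice (10 higher with one common median, 9 with quantile normalisation), with a median of 0.08. Besides Zfp516, the largest difference was that of Zfp827, whose human counterpart brings the NuRD complex to telomeres, 0.17 (SE 0.047, limma adjusted p = 0.0702). It was at 10.69, 10.80 and 10.74 in susceptible, 10.73, 10.81 and 10.83 in resilient and 10.53, 10.56 and 10.70 in control mice, where control 4 passed susceptible 1. Zfp532 and Zfp592, partners of the chromatin reader Zmynd8, had 0.12 (SE 0.033) and 0.12 (SE 0.040). Zfp217 had 0.16 (SE 0.058), the BTB protein gene Zfp131 0.10 (SE 0.035), the SUMO ligase gene Zfp451 0.08 (SE 0.048), and the promoter factor gene Zfp143 0.06 (SE 0.031). Zfp652 had 0.06 (SE 0.033), Zfp703 had 0.02 (SE 0.030), and the dim pluripotency gene Zfp42 had 0.06 (SE 0.041). The lower 2 were Zfp653, at -0.11 (SE 0.054), and the dim gene Zfp296.

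KRAB genes with a reported silencing target numbered 13 on their list and 3 in the table, with none called. Zfp445, which guards imprinted regions, was at 10.45, 10.43 and 10.48 in susceptible, 10.41, 10.50 and 10.58 in resilient and 10.17, 10.35 and 10.22 in control mice. The defeated arrays were all above the controls, by 0.23 (SE 0.050), and the limma adjusted p was 0.0561. Zfp458 had -0.08 (SE 0.043), and Zfp819 was dim with 0.02 (SE 0.040).

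**Figure D5:**
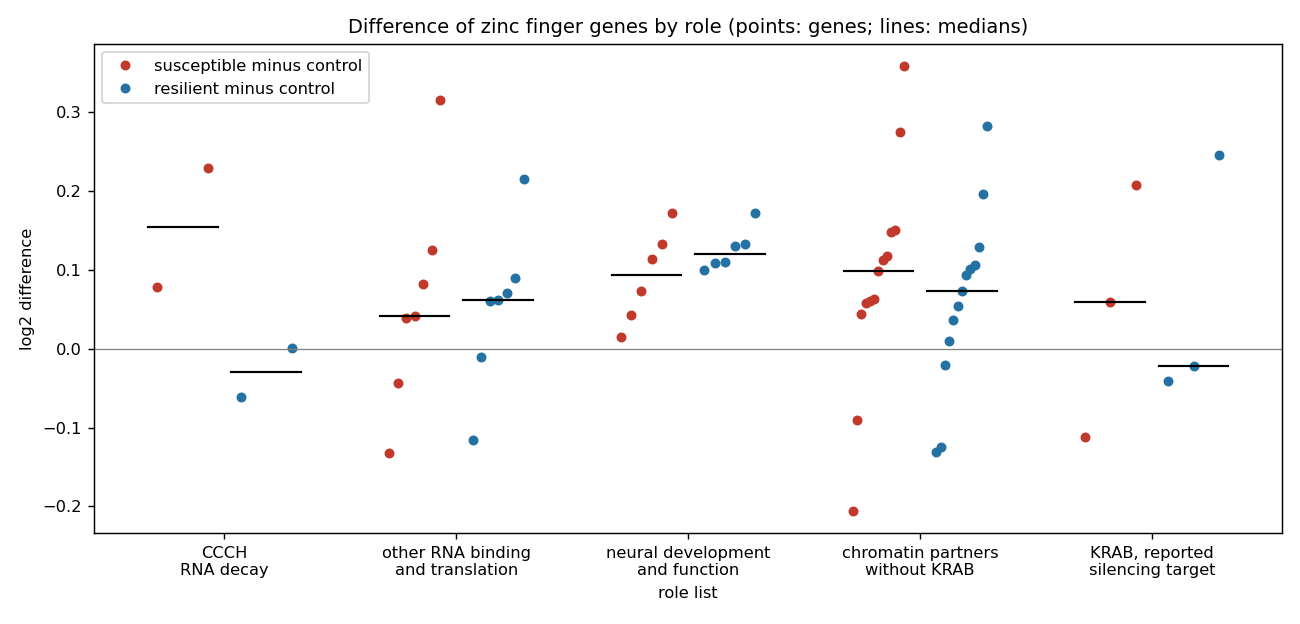
The difference of the 31 zinc finger genes on role lists from controls (log2), in susceptible mice (red) and resilient mice (blue), where points are genes and lines are medians. The 6 neural genes are above 0 in both groups, and Zfp516 is the highest chromatin partner in both.

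The co-repressors that KRAB proteins recruit were counted too. Of 33 such genes 15 were in the table, 12 higher and 3 lower in defeated mice, with a median of 0.08 and 12 higher under both other scalings. All 15 lay above the dim level, where 71.1% of genes were higher, with a median of 0.07. limma called 1 of them, Dnmt3a, a DNA methyltransferase that sets new methylation, against 1.29% of all genes. Dnmt3a was at 10.20 ± 0.05 in susceptible, 10.19 ± 0.03 in resilient and 9.94 ± 0.10 in control mice (SD, n = 3 each), a rise of 0.25 (SE 0.046, limma adjusted p = 0.0432) that was not called with one common median. The hub of the pathway, Trim28, differed by 0.08 (SE 0.050) and its methyltransferase partner Setdb1 by 0.07 (SE 0.046). Cbx1, a reader of the silencing mark, had 0.18 (SE 0.044), the maintenance methyltransferase Dnmt1 0.19 (SE 0.057), the remodeller Chd4 0.16 (SE 0.046) and Morc2a, of the HUSH pathway, 0.13 (SE 0.031).

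Genes with zinc fingers under other names were counted beside them. In defeated mice 11 of 20 Zbtb genes, 3 of 3 Zscan genes, 4 of 4 Zkscan genes, 5 of 9 Klf genes, 8 of 10 Zc3h genes and 4 of 8 Prdm genes were higher than in controls, and none was called. All 6 Zfyve genes, which bind membrane lipids, were higher, also with the other scalings, and 1 was called in susceptible mice. Of the 12 Zdhhc genes, which encode palmitoyl transferases, 11 were higher (10 with one common median, 8 with quantile normalisation) and none was called.

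Some zinc finger genes lie next to each other in the genome, and neighbours did not all move alike. In the RefSeq gene table of GRCm38.p6, 23 of the genes formed 10 runs of neighbours, and in 5 runs all members were on the same side of 0 in defeated mice. Zfp235 lies in a run with Zfp112, Zfp114 and Zfp111, whose differences from controls were 0.05, 0.04 and 0.14 against 0.19 for Zfp235. Zfp516 lies beside Zfp236, at 0.16, and Zfp667 beside Zfp583, at 0.13. In 5 other runs the signs were mixed, as for Zfp811 at 0.20 and Zfp799 at -0.11.

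A few symbols were open to doubt. RefSeq lists 131 of the 137 under the same symbol and 5 under another, with 1 unmatched. Members with near-identical sequences can share probes, and this was not checked, as no probe sequence was used here. Of the 7 genes with several entries, Zfp507 had 0.151 by the entry kept and -0.203 by the other, and Zfp160 had 0.152 and -0.135. The entries of Zfp788 held identical values. None of the genes that rose had a second entry.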

How the data were processed

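The authors deposited log2 values, for which RMA and Partek are named per the submitters' processing notes, with no version, array annotation or build given in the sources used here. That each symbol had passed a selection by at least 1 of its entries was read from the values, and not every entry had. Symbols were joined through the probe set identifiers of another deposited table, whose 9 value columns matched no sample label and were not used. Of 11772 entries, the one with the highest mean was kept for each of 9803 symbols.

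One limma fit (lmFit, contrasts.fit, eBayes; prior degrees of freedom 3.4) with a mean per group covered all 9 arrays, with two-sided tests and Benjamini-Hochberg adjustment over all symbols; genes were called under 0.05. SE is limma's. The fit was tested on simulated data. Single genes also had exact permutation tests. Alternatives covered selection, scaling, spread model, array weights, dim genes, entries, block, covariate and arrays left out.

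The zinc finger genes and lists were chosen with earlier results of these data known. Named genes were those called, filled to 5 per direction by p, the 5 smallest F p-values and role lists; other names were chosen after their values were seen. Protein motifs were not analysed here. Some genes and the results that need them are not reported here. The array number limits precision. Software was limma 3.58.1 under R 4.3.3, and matplotlib 3.10.9, scipy 1.17.1, pandas 2.3.3 and numpy 2.4.6 under Python 3.11.15.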

Additional observations from a re-analysis of the deposited data

How the results depend on the processing

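The counts of called zinc finger genes depended on the processing, and the cause was not tested. Between defeated and control mice the count of 7 became 0 with the allowance for selection, quantile normalisation, the replicate block or the choroid plexus covariate. In each of these at most 0.0306% of all genes were called. The count became 2, or 1.46%, with an ordinary linear model, against 0.102% of all genes. It was also 2 with the defeated mice fitted as a single group, against 0.408% of all genes. It became 12 with dim genes left out (10.3%, against 5.33% of all genes) and 41 with array weights (29.9%, against 21.3% of all genes). Without one array it lay between 0 and 29, the most without susceptible 1 (21.2%, against 13.6% of all genes). Between susceptible and control mice the count of 7 became 0 with the allowance, quantile normalisation, the replicate block or the choroid plexus covariate. It was also 0 with the 2 groups compared alone or without susceptible 3 and resilient 1. In each of these at most 0.122% of all genes were called. The count became 2 with an ordinary linear model (1.46%, against 0.204% of all genes). It became 24 with one common median (17.5%, against 15.3% of all genes). It became 52 with array weights (38%, against 35.1% of all genes). It lay between 0 and 29 without one array, the most without susceptible 1 (21.2%, against 19.7% of all genes). Counts in the other 2 comparisons were 0 in each alternative run. That of the F test was 0 to 6 without one array, the most without susceptible 1 (4.38%, against 3.77% of all genes). With array weights the F test called 42, or 30.7%, against 20.6% of all genes.

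The median difference between defeated and control mice was 0.022 with one common median, 0.024 with quantile normalisation and 0.055 with the choroid plexus covariate. In susceptible mice against controls it was 0.030, 0.021 and 0.050 under the same settings, 0.079 with the replicate block, 0.071 without susceptible 3 and resilient 1, and 0.071 to 0.094 without one array. For resilient mice against controls it was 0.031 and 0.015 with one common median and quantile normalisation. Between susceptible and resilient mice it was -0.012 and 0.000 under these, and 0.002 without susceptible 3 and resilient 1.

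Among the named genes, small differences between defeated and control mice changed sign: Zfp143 (-0.023), Zfp346 (-0.031), Zfp385a (-0.006), Zfp598 (-0.066), Zfp703 (-0.029) and Zfp36l2 (-0.065) with quantile normalisation; Zfp346 (-0.033), Zfp598 (-0.041), Zfp703 (-0.028), Zfp819 (-0.031) and Zfp36l2 (-0.040) with one common median; Zfp36l1 (-0.024) and Zfp598 (-0.038) with the choroid plexus covariate; Zfp598 (-0.022) and Zfp36l2 (-0.002) with the replicate block; and Zfp36l2 (-0.006) with array weights or without susceptible 3 and resilient 1. Without one array Zfp36l2 lay between -0.006 and 0.037 and Zfp598 between -0.011 and 0.035. Same-numbered arrays had correlations of deviations from their group means between -0.08 and 0.25, so the numbers were not taken to pair the samples.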
